A study of Homo sapiens with 6 samples.

Results

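The cellular response to low oxygen was followed in C4-2B enzalutamide resistant cells through 10 genes chosen by name: HIF1A, EPAS1, ARNT, CA9, CA12, EGLN1, EGLN3, VEGFA, BNIP3 and ANKRD37. All 10 were found in the deposited table of 58024 genes, each as a single row. C4-2B is an androgen-refractory, castration-resistant human prostate cancer cell line descended from LNCaP, and RNA-Seq was available for 3 libraries of parental cells and 3 libraries of resistant cells. The resistant cells came through passage in rising doses of enzalutamide, an antiandrogen, from 1 to 20 µM for a period of 6 months or more, with 5 µM for maintenance. They are the pooled fraction of cells that survived the drug. Parental cells were passaged alongside in the vehicle, which the labels give as 1% DMSO and the study's methods as staying under a smaller limit. RNA was taken from cells exposed to 10 µM enzalutamide, and the sources do not settle whether this held for the parental cells as well. Both groups were grown in RPMI-1640 with serum, and the oxygen level of the cultures is not given in the sources used here. Nothing states that the 3 libraries of a group came from separate cultures, so that p values measure the spread between these libraries, which may be technical.

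The hypoxia-inducible factors (HIF) are pairs of an oxygen-regulated alpha subunit, encoded by HIF1A or EPAS1 (HIF-2 alpha), and the constant beta subunit ARNT. In the presence of oxygen, prolyl hydroxylases such as EGLN1 (PHD2) and EGLN3 (PHD3) mark the alpha subunits for degradation through the VHL ubiquitin ligase, so that HIF activity is set largely at the level of the protein and not of the mRNA. When oxygen is low, the stabilized factor binds short core sequences near its targets, among them the carbonic anhydrases CA9 and CA12, the angiogenic ligand VEGFA, the mitophagy receptor BNIP3, the ankyrin repeat gene ANKRD37 and the hydroxylase genes EGLN1 and EGLN3 themselves.

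Values in the table are taken as FPKM, which divides the fragments of a gene by the transcript length and the number of mapped fragments, a unit per length that allows levels of different genes to be compared. The FPKM summed to between 792975 and 870110 per library. The table holds no read counts, and the depth estimated from the smallest steps of the values, with fragments assumed to be 200 bases long, lay between 13300000 and 20200000 reads per library. RPPH1 was at 0 in the parental libraries and took 10.7% to 11.6% of the summed FPKM in the resistant libraries. The share of the short RNA RMRP was 18.4% to 21.5% in the parental libraries and 11.4% to 12.6% in the resistant libraries. These are shares of summed FPKM and not of mapped fragments, by which FPKM is scaled. How far this difference in composition moves the scaling of other genes was not tested. The luminal epithelial markers KRT8, KRT18 and KLK3 were detected in every library, and KLK3 fell by 5.85 on the log2 scale. The leukocyte, endothelial and basal lists stayed at or below 1.14 FPKM summed in every library, with CD3D and KDR at 0 throughout. Of the 5 fibroblast markers, DCN was at 0 in parental cells and at 3.63 to 4.35 FPKM in the resistant libraries. LUM had means of 0.0604 FPKM in parental and 0.969 FPKM in resistant cells. COL1A1 went the other way, with means of 6.71 and 4.39 FPKM and overlapping ranges. COL1A2 and PDGFRA stayed at or below 0.132 FPKM in every library. The fibroblast list summed to 5.09 to 8.87 FPKM in parental and 7.64 to 12.4 FPKM in resistant libraries. The neuroendocrine list summed to 1.12 to 2.80 FPKM in parental and 47.3 to 54.2 FPKM in resistant libraries, most of it SYP. The part of these differences in the results below was not tested. The groups were tested against each other by limma on log2(FPKM + 0.1) over the 24468 genes whose mean reached 0.1 FPKM, and a Benjamini-Hochberg adjusted p below 0.05 over all of these genes was the threshold for a call. All 10 genes passed the filter on the mean. Log2 changes are given as resistant over parental on this scale, which understates the change of low genes, and SE is their standard error.

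Of the 10 genes, 5 were called lower (CA12, EGLN3, VEGFA, BNIP3 and ANKRD37), 1 was called higher (ARNT) and 4 did not pass the threshold (HIF1A, EPAS1, CA9 and EGLN1). Over all genes tested, 22.3% were called lower and 22.1% higher, or 44.4% in either direction. The 5 genes called lower are all targets of HIF, as are CA9 and EGLN1, which were not called (log2 changes 1.72 and 0.26). Each of the 5 genes called lower kept its call in all 15 alternative fits, among which the 2-fold limit is not counted. The highest adjusted p (limma) of these 5 genes over the alternative fits was 0.0437, for CA12. The median log2 change of the 10 genes was −0.40, against −0.05 over all genes. At least 2-fold lower and called were 3 of the 10 (EGLN3, BNIP3 and ANKRD37), against 13.6% of all genes. Groups without overlap were found in 7 of the 10, 5 with the resistant cells below and 2 above (ARNT and CA9), where 54.8% of all genes tested had no overlap, 28.1% below and 26.6% above.

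**Figure D1:**
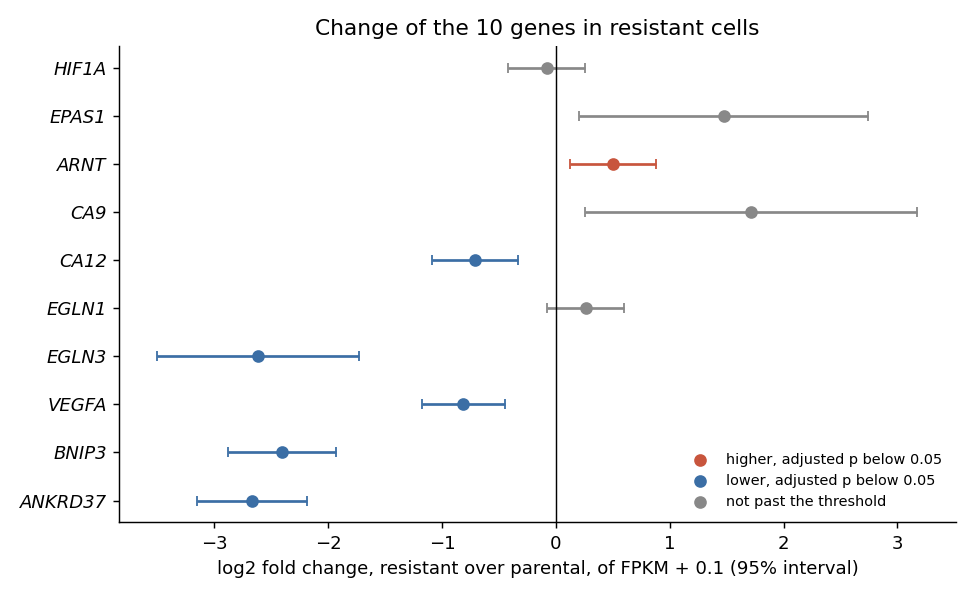
Log2 fold change of FPKM + 0.1 (x axis, points) of the 10 genes in resistant against parental cells, with 95% intervals from limma (blue, called lower; red, called higher; grey, not past the threshold). The 3 largest decreases, in ANKRD37, EGLN3 and BNIP3, lie beyond −2, and the intervals of EPAS1 and CA9 are the widest among the genes to the right of 0.

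The sequences upstream of 5 of the genes are shown because they contrast genes that were lower in the resistant cells with genes that were not. They are the 250 bases before the transcript start in RefSeq (GRCh38.p14), written along the gene strand, and for ANKRD37, BNIP3 and EGLN3 this start lies within the longer extent that GENCODE gives the gene. Capitals mark the core of the hypoxia response element as ACGTG or GCGTG on the gene strand, or as CACGT or CACGC where the core lies on the opposite strand. ANKRD37 (upstream region chr4:185396591-185396840 on the plus strand) and BNIP3 (chr10:131981924-131982173 on the minus strand) were lower and hold ACGTG. EGLN3 (chr14:33951075-33951324 on the minus strand) was lower and holds neither core in this window. CA9 (chr9:35673678-35673927 on the plus strand) and EGLN1 (chr1:231422288-231422537 on the minus strand) hold ACGTG and were not past the threshold in either direction.
ANKRD37: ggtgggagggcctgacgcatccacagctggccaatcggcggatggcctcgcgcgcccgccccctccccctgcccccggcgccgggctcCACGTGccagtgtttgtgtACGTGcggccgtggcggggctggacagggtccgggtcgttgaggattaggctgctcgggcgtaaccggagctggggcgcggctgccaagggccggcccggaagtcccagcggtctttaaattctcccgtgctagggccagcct
BNIP3: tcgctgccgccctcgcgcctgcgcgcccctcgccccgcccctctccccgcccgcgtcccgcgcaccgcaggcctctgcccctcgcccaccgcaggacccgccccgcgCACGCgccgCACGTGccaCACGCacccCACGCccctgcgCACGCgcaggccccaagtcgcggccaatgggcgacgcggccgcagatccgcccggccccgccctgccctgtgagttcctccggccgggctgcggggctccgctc
EGLN3: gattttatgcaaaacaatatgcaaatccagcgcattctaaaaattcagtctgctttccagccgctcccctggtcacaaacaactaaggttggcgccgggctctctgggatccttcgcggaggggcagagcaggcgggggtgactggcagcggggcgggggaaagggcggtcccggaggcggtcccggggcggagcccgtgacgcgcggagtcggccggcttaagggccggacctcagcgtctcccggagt
CA9: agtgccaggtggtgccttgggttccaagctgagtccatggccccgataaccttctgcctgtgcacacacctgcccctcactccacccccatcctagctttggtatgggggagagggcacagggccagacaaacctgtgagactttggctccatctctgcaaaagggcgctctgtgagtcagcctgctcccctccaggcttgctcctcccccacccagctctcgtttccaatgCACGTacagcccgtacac
EGLN1: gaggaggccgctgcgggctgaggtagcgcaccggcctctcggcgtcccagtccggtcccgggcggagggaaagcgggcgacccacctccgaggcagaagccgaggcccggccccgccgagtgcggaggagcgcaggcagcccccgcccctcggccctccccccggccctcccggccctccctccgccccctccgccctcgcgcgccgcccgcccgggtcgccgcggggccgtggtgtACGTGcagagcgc

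A RefSeq upstream sequence was matched for 9 of the 10 genes by symbol. The core ACGTG was present in 4 of them (CA9, EGLN1, BNIP3 and ANKRD37), against 18.5% of the 35116 upstream sequences of the same length in the whole RefSeq set and 22.8% of the 11881 tested genes with a sequence. The core GCGTG was also present in 4 (HIF1A, EPAS1, CA12 and BNIP3), against 32.2% of all upstream sequences. Both strands were searched, and the palindrome CACGTG of BNIP3 and ANKRD37 counts once on each strand. ANKRD37 held ACGTG at 3 positions, between −162 and −139 relative to the start. In BNIP3, 6 cores of either kind lay between −143 and −100. The single cores of CA9 and EGLN1 were the nearest to the start, at −18 to −14 and −13 to −9. Such a match describes the letters of this window and does not show binding.

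**Figure D2:**
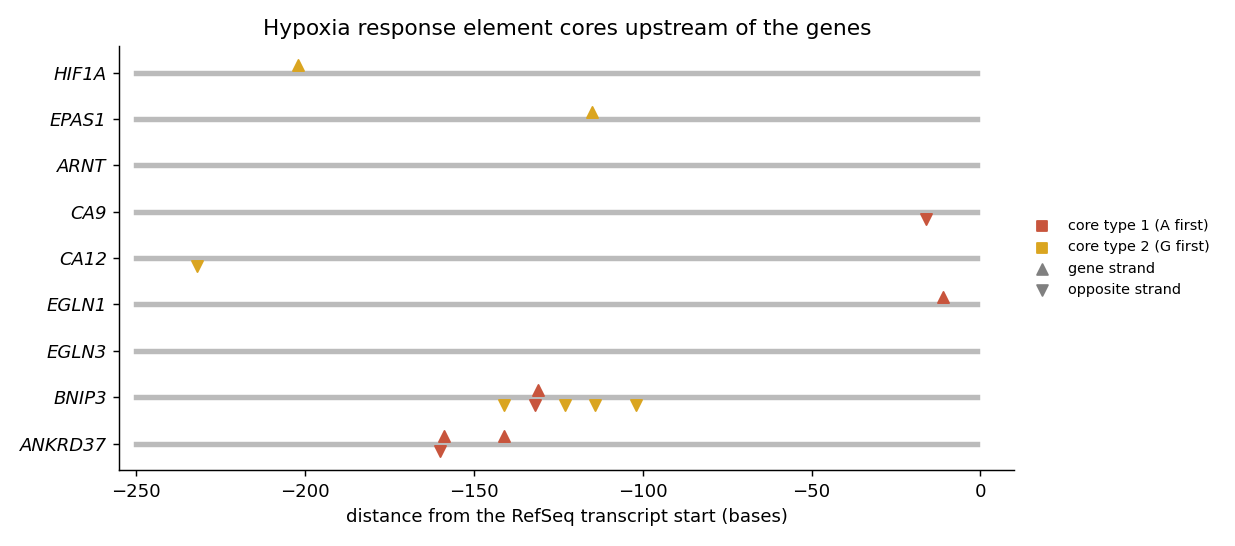
Positions of hypoxia response element cores in the 250 bases before the RefSeq start of 9 of the genes (x axis, bases from the start; red, ACGTG; yellow, GCGTG; upward triangles, gene strand; downward triangles, opposite strand; grey lines, the window searched). BNIP3 and ANKRD37 hold several cores each, while ARNT and EGLN3 hold none.

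Among the subunit genes, HIF1A was the most abundant in both kinds of cells. HIF1A on chromosome 14 (GRCh38, 61695513 to 61748259, plus strand) was at 88.8, 69.5 and 64.9 FPKM in parental cells (replicates 0, 1 and 2) and 76.7, 70.7 and 62.2 FPKM in resistant cells. The groups overlap almost entirely. The means were 74.4 ± 12.7 and 69.9 ± 7.28 FPKM (SD, n = 3 each), with a log2 change of −0.08 (95% interval −0.42 to 0.26, Benjamini-Hochberg adjusted p in limma = 0.666). The direction is not fixed, since the log2 change was 0.04 after quantile normalization, 0.02 after median ratio scaling and 0.05 without parental replicate 0. The antisense gene HIF1A-AS2, listed as HIF1A-AS3 in the newer annotation, shares 299 exonic bases with HIF1A and was at 1.10, 0.676 and 3.24 FPKM in parental and 0.386, 0 and 0 FPKM in resistant libraries. Its log2 change was −3.11 (Benjamini-Hochberg adjusted p in limma = 0.0248). The pseudogene HIF1AP1 was listed at 0, 0 and 3.88 FPKM in parental and 3.30, 0 and 7.26 FPKM in resistant libraries, and reads of 50 bases may be split between it and HIF1A.

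EPAS1, the alpha subunit of HIF-2, was far lower than HIF1A. On chromosome 2 (46293667 to 46386697, plus strand), it had 0.937, 0.749 and 2.00 FPKM in parental cells and 4.38, 1.66 and 4.90 FPKM in resistant cells. Resistant replicates 0 and 2 lay above all parental libraries, and resistant replicate 1 lay within their range. The log2 change was 1.47 (SE 0.53, 95% interval 0.20 to 2.75), which missed the threshold (Benjamini-Hochberg adjusted p in limma = 0.0627). EPAS1 passed in 4 of 15 alternatives. Without resistant replicate 1 the log2 change was 1.95 (adjusted p in limma = 0.0315). It also passed after median ratio scaling (adjusted p = 0.0488), among protein-coding genes alone (adjusted p = 0.0310) and with replicate number as a block (adjusted p = 0.0259). When any other library was left out, EPAS1 did not pass, with adjusted p values in limma from 0.0556 to 0.215.

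ARNT on chromosome 1 (150809713 to 150876708, minus strand), the shared beta subunit, was at 15.9, 15.1 and 20.7 FPKM in parental cells and 27.5, 23.5 and 21.9 FPKM in resistant cells. The groups do not overlap, although parental replicate 2 and resistant replicate 2 are close. ARNT was the only gene of the 10 called higher, with a log2 change of 0.50 (SE 0.16, Benjamini-Hochberg adjusted p in limma = 0.0407). This call is fragile: it passed the threshold in 7 of 15 alternatives, with adjusted p values from 0.0174 to 0.133. It was lost when any library other than parental replicate 2 was left out, with log2 changes from 0.41 to 0.57, while without parental replicate 2 it was 0.64.

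**Figure D3:**
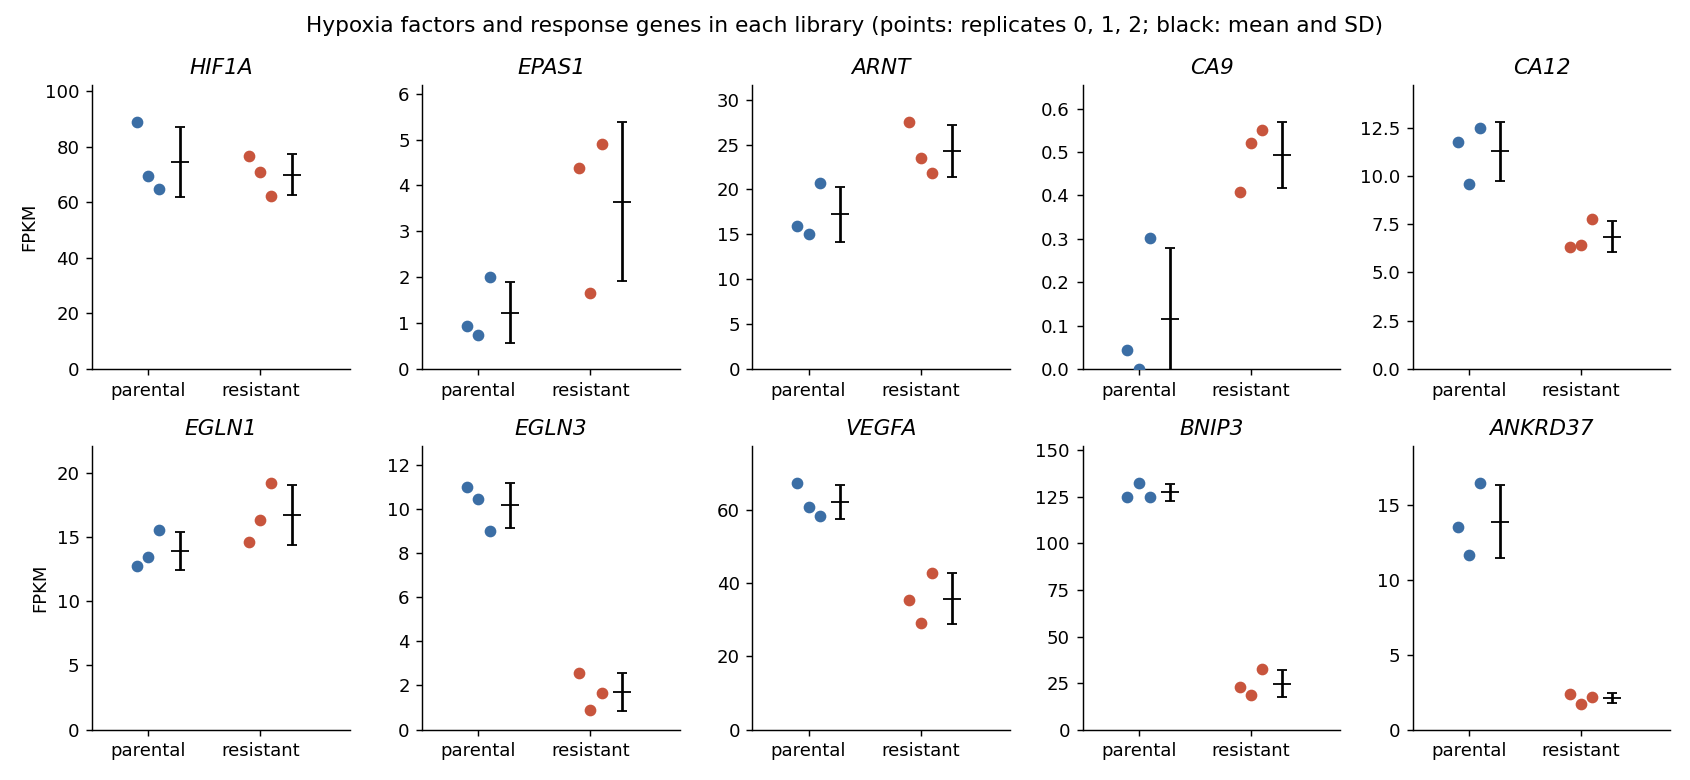
FPKM (y axes, linear from 0, scaled per gene) of the 10 genes in each library (blue, parental; red, resistant; points, replicates 0, 1 and 2 from left to right; black, mean and SD). The lower SD bar of CA9 in parental cells is cut at 0. BNIP3, ANKRD37 and EGLN3 show the widest gaps between the groups, and HIF1A shows none.

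Of the hydroxylase genes, EGLN3 fell in the resistant cells and EGLN1 was not past the threshold. EGLN3 on chromosome 14 (33924227 to 34462774, minus strand) was at 11.0, 10.5 and 9.00 FPKM in parental cells and 2.57, 0.884 and 1.66 FPKM in resistant cells. Every resistant value lay far below every parental value. EGLN3 fell from 10.1 ± 1.03 to 1.70 ± 0.845 FPKM (SD, n = 3 each), and its log2 change was −2.62 (SE 0.37, Benjamini-Hochberg adjusted p in limma = 0.00173). SPTSSA, a gene on the same strand within the long form of EGLN3, shares no exonic base with it and had a log2 change of −0.36 (Benjamini-Hochberg adjusted p in limma = 0.0418).

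EGLN1 on chromosome 1 (231363751 to 231422287, minus strand), the main oxygen sensor of most cells, was at 12.7, 13.5 and 15.6 FPKM in parental cells and 14.7, 16.3 and 19.2 FPKM in resistant cells. These ranges overlap. The log2 change was 0.26 (95% interval −0.08 to 0.60, Benjamini-Hochberg adjusted p in limma = 0.179), and it passed the threshold in 1 of 15 alternatives, median ratio scaling (adjusted p = 0.0492). EGLN1 exceeded EGLN3 by 1.16 to 1.73 times in the parental libraries and by 5.70 to 18.5 times in the resistant libraries. The log2 ratio of EGLN3 over EGLN1 differed by −2.88 between the groups, which did not overlap (exact two-sided permutation test, p = 0.1, the smallest that 3 against 3 can give, 0.133 after adjustment over the 4 ratios tested).

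The target genes BNIP3 and ANKRD37 had the clearest decreases. BNIP3 on chromosome 10 (131967684 to 131981967, minus strand), a receptor that recruits the autophagy machinery to mitochondria, was the most abundant of the 10 genes in the parental cells. It had 125, 133 and 125 FPKM in parental cells and 22.7, 18.6 and 32.6 FPKM in resistant cells. The parental libraries were close together, and all resistant values lay far below them. BNIP3 fell from 127 ± 4.46 to 24.6 ± 7.17 FPKM (SD, n = 3 each), and its log2 change was −2.41 (SE 0.20, Benjamini-Hochberg adjusted p in limma = 2.00e-04). The 39 BNIP3 pseudogenes in the table, among which reads of 50 bases could be split, summed to between 0 and 1.60 FPKM per library. In a bulk library, a lower level in every cell and a loss of expression in some of the cells cannot be told apart.

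BNIP3L (NIX), the paralog of BNIP3, was at 81.1, 71.4 and 84.0 FPKM in parental and 53.2, 52.7 and 72.8 FPKM in resistant libraries. Its ranges overlap, and the log2 change of −0.42 did not pass the threshold (Benjamini-Hochberg adjusted p in limma = 0.0587). BNIP3 exceeded BNIP3L by 1.49 to 1.86 times in every parental library, while BNIP3L exceeded BNIP3 by 2.24 to 2.83 times in every resistant library. On the opposite strand, PNMA2 shares 330 exonic bases with BNIP3L and rose from at most 1.01 to between 12.4 and 18.0 FPKM. The reversal of order is a quantity within a library and does not depend on how the libraries were scaled. The log2 ratio of BNIP3L over BNIP3 was −0.70 ± 0.17 in parental and 1.29 ± 0.18 in resistant cells (SD, n = 3 each, exact two-sided permutation test, p = 0.1, the smallest possible, 0.133 adjusted over the 4 ratios).

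ANKRD37 on chromosome 4 (185396021 to 185400628, plus strand), which encodes a small ankyrin repeat protein, was at 13.5, 11.6 and 16.5 FPKM in parental cells and 2.40, 1.72 and 2.16 FPKM in resistant cells. The lowest parental value exceeded the highest resistant value several times over. The gene fell from 13.9 ± 2.44 to 2.09 ± 0.342 FPKM (SD, n = 3 each), and its log2 change was −2.67 (SE 0.20, Benjamini-Hochberg adjusted p in limma = 1.39e-04). On the opposite strand, UFSP2 shares 909 of the 2253 exonic bases of ANKRD37, and although the libraries were made with a stranded kit, the methods do not say whether strand was used in the estimates. UFSP2 rose, from 10.9 ± 0.782 to 19.1 ± 1.35 FPKM (SD, n = 3 each), with a log2 change of 0.80 (Benjamini-Hochberg adjusted p in limma = 0.00137).

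VEGFA on chromosome 6 (43770184 to 43786487, plus strand), the main ligand for blood vessel growth, was at 67.3, 60.7 and 58.3 FPKM in parental cells and 35.3, 29.0 and 42.8 FPKM in resistant cells. All resistant values lay below all parental values. The antisense lncRNA RP1-261G23.7, which shares 188 exonic bases with VEGFA, was at 6.09 to 11.2 FPKM in parental and 0 to 2.85 FPKM in resistant libraries. VEGFA fell from 62.1 ± 4.68 to 35.7 ± 6.92 FPKM (SD, n = 3 each), and its log2 change was −0.81 (SE 0.15, Benjamini-Hochberg adjusted p in limma = 0.00562), smaller in size than that of BNIP3, EGLN3 or ANKRD37. Of the other VEGF ligands and receptors, VEGFB fell from 14.4, 19.2 and 15.9 FPKM to 6.74, 9.46 and 10.5 FPKM (log2 change −0.90, Benjamini-Hochberg adjusted p in limma = 0.0114). The receptors FLT4 and NRP1 had log2 changes of 0.24 and −0.37 without passing the threshold, and NRP1 passed only without parental replicate 1 (adjusted p = 0.0315). KDR, the main VEGFA receptor, was listed at 0 in all 6 libraries. Of the 9 tested genes of this family, 2 were called lower (VEGFA and VEGFB) and 1 higher, VEGFC, which was at 0 in the parental libraries and at 1.02, 1.43 and 1.19 FPKM in the resistant libraries and is named after its values were seen. These are 11.1% higher and 22.2% lower, against 22.1% higher and 22.3% lower over all genes tested, shares at or below that background.

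The membrane-bound carbonic anhydrases CA9 and CA12, which acidify the space around the cell, stood at very different levels. CA12 on chromosome 15 (63321378 to 63381846, minus strand) was at 11.8, 9.58 and 12.5 FPKM in parental cells and 6.33, 6.44 and 7.77 FPKM in resistant cells. The groups do not overlap. CA12 fell from 11.3 ± 1.52 to 6.85 ± 0.805 FPKM (SD, n = 3 each), and its log2 change was −0.71 (SE 0.16, Benjamini-Hochberg adjusted p in limma = 0.0108).

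CA9 on chromosome 9 (35673928 to 35681159, plus strand), a widely used marker of hypoxic tumor cells, was barely detected. It was listed at 0.0441, 0 and 0.302 FPKM in parental cells and 0.407, 0.522 and 0.551 FPKM in resistant cells, so that all resistant values were higher. With the depths estimated above, a single read on CA9 is worth 0.0354 to 0.0537 FPKM, and the values correspond to about 1.25, 0 and 5.62 reads in parental and 9.63, 11.5 and 11.0 reads in resistant libraries. The log2 change of 1.72 (SE 0.60, 95% interval 0.26 to 3.18) did not pass the threshold (Benjamini-Hochberg adjusted p in limma = 0.0601). It passed in 3 of 14 alternatives, among them without parental replicate 2 (adjusted p = 0.00878), and ranged from 0.43 with a pseudocount of 1 FPKM to 3.18 with 0.01 FPKM. ARHGEF39 on the opposite strand shares 571 of the 1598 exonic bases of CA9 and was at 17.7 to 32.8 FPKM, with no call between the groups (Benjamini-Hochberg adjusted p in limma = 0.102). The libraries were stranded, whether the estimates used strand is not given, and the part of ARHGEF39 reads in the CA9 values was not tested. CA12 exceeded CA9 at least 12.3 times in every library in which CA9 was above 0.

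**Figure D4:**
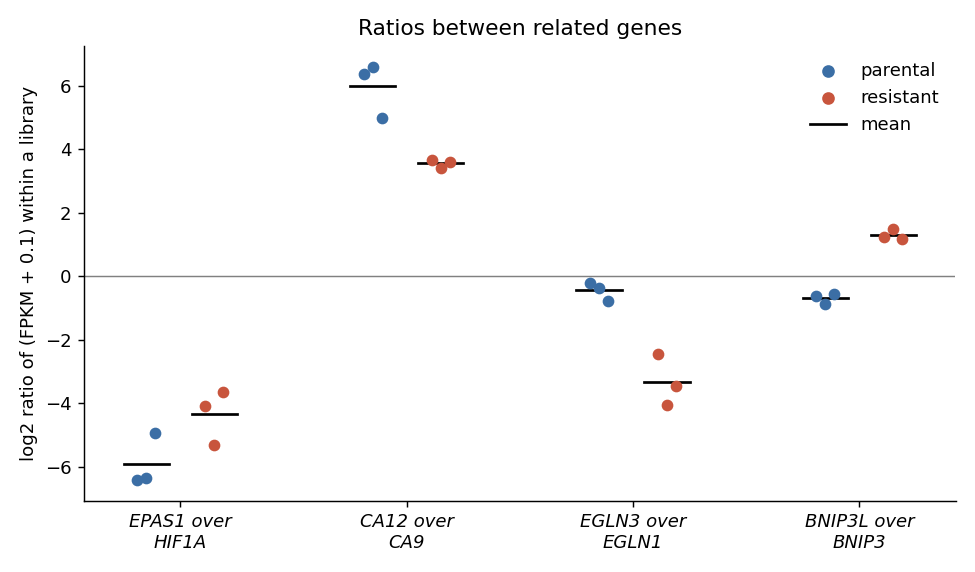
Log2 ratio of FPKM + 0.1 (y axis) between related genes within each library (blue, parental; red, resistant; lines, means of 3). BNIP3L over BNIP3 lies below 0 in all parental and above 0 in all resistant libraries, and EPAS1 over HIF1A is the ratio in which the groups overlap.

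The ratio of EPAS1 to HIF1A did not separate the groups. HIF1A exceeded EPAS1 by 94.8, 92.8 and 32.5 times in the parental libraries and by 17.5, 42.5 and 12.7 times in the resistant libraries, where the value of parental replicate 2 falls inside the resistant range. The log2 ratio differed by 1.56 (exact two-sided permutation test, p = 0.2, also 0.2 after adjustment over the 4 ratios). For CA12 over CA9 the log2 ratio was 5.98 ± 0.88 in parental and 3.55 ± 0.14 in resistant cells (SD, n = 3 each) without overlap (exact two-sided permutation test, p = 0.1, adjusted 0.133), and the difference of −2.43 became −1.07 with a pseudocount of 1 FPKM.

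The order of the genes by level changed between the cells. In parental cells, BNIP3 (127 FPKM) stood above HIF1A (74.4) and VEGFA (62.1), followed by ARNT (17.2), EGLN1 (13.9), ANKRD37 (13.9), CA12 (11.3), EGLN3 (10.1), EPAS1 (1.23) and CA9 (0.115). Neighbours from ARNT to EGLN3 in this order overlap in their ranges, as do HIF1A and VEGFA, while BNIP3, EPAS1 and CA9 stand apart. In resistant cells, HIF1A (69.9 FPKM) was first, followed by VEGFA (35.7), BNIP3 (24.6), ARNT (24.3), EGLN1 (16.7), CA12 (6.85), EPAS1 (3.65), ANKRD37 (2.09), EGLN3 (1.70) and CA9 (0.493). There VEGFA, BNIP3 and ARNT overlap with their neighbours, as do EPAS1, ANKRD37 and EGLN3. Relative to all genes tested, BNIP3 was above 96.3% of genes in parental and 79.3% in resistant cells, and HIF1A was above 92.8% and 93.1%.

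In a list of 8 subunits and partners that includes HIF1A, EPAS1 and ARNT, 4 genes were called higher (ARNT, ARNT2, CITED2 and HIF3A) and 1 lower (CREBBP), with a median log2 change of 0.99. These are 50.0% higher and 12.5% lower, against 22.1% higher and 22.3% lower over all genes tested. CITED2, a target of HIF that competes with it for the coactivators EP300 and CREBBP, rose from 30.1, 28.6 and 28.3 FPKM to 158, 185 and 193 FPKM (log2 change 2.61, SE 0.09, Benjamini-Hochberg adjusted p in limma = 1.09e-05). ARNT2, a second beta subunit best known from neurons, rose from 0.906, 1.12 and 1.14 FPKM to 8.70, 9.45 and 10.8 FPKM (log2 change 3.08, SE 0.19). The coactivator CREBBP fell from 117, 76.6 and 56.2 FPKM to 22.6, 21.4 and 27.7 FPKM (log2 change −1.74, SE 0.27), and its close relative EP300 was not past the threshold. The groups do not overlap for CITED2, ARNT2 or CREBBP. HIF3A, an alpha subunit named after its values were seen, reached at most 0.534 FPKM. Without parental replicate 0, 3 genes of the list were called.

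In the list of 14 genes of oxygen sensing and HIF degradation, which includes EGLN1 and EGLN3, 2 genes were called higher (HIF1AN and P4HTM), 5 lower (EGLN3, TCEB1, CUL2, RBX1 and SIAH2, of which CUL2 and RBX1 are named after their values were seen) and 7 neither, and the median log2 change was 0.11. These are 14.3% higher and 35.7% lower, against 22.1% higher and 22.3% lower over all genes tested. The larger number of lower calls depended on the processing. It was 4 higher and 3 lower after median ratio scaling, and 4 and 4 after quantile normalization. With replicate number as a block it was 3 and 3. HIF1AN (FIH), the asparaginyl hydroxylase that blocks the transactivation domain of HIF, rose from 7.41, 6.84 and 7.82 FPKM to 12.0, 15.7 and 14.6 FPKM (log2 change 0.93, Benjamini-Hochberg adjusted p in limma = 0.00232). P4HTM, a prolyl hydroxylase of the endoplasmic reticulum, rose from 39.6, 38.1 and 45.5 FPKM to 67.4, 75.7 and 84.9 FPKM (log2 change 0.89). SIAH2, a ubiquitin ligase that targets EGLN3 for degradation, fell with a log2 change of −0.89, and TCEB1 (elongin C), a part of the VHL ligase, with −0.37. VHL itself was at 39.5 to 40.2 FPKM in parental and 34.3 to 38.3 FPKM in resistant libraries and was not past the threshold (log2 change −0.14, Benjamini-Hochberg adjusted p in limma = 0.171).

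Among 42 tested targets of HIF outside glycolysis, 24 were called lower and 5 higher in the resistant cells, which is 57.1% and 11.9%, against 22.3% and 22.1% over all genes. The median log2 change was −0.76. Leaving out the 7 of these that belong to the 10 genes, 19 of 35 were lower and 5 higher, with a median of −0.68. NDRG1, a stress-responsive gene induced by hypoxia and by androgens, fell from 288, 256 and 312 FPKM to 28.9, 38.5 and 42.5 FPKM (log2 change −2.97, SE 0.16, Benjamini-Hochberg adjusted p in limma = 3.96e-05). DDIT4 (REDD1), which restrains mTORC1 under stress, fell from 271, 263 and 279 FPKM to 54.0, 44.2 and 57.8 FPKM (log2 change −2.39). The secreted glycoprotein gene STC2 fell from 51.5, 43.8 and 51.2 FPKM to 9.26, 10.2 and 8.82 FPKM (log2 change −2.36). Log2 changes of −1.88 and −1.86 were found for PLOD1, a collagen lysyl hydroxylase, and FAM162A, a mitochondrial protein. For these 5 genes the groups do not overlap, and the calls held in all alternatives. The lists were written with earlier results of these data known, so that their counts describe these libraries.

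An ACGTG core in the upstream window was held by 21 of the 33 listed targets outside glycolysis with a RefSeq sequence, or 63.6%. Of these 21 genes, 14 were called lower and 2 higher, with a median log2 change of −1.43. Of the 12 targets without the core, 7 were lower and 2 higher, with a median of −0.79. Whether the targets with and without the core differ in their change was not tested. The 33 targets include CA9, CA12, EGLN1, EGLN3, BNIP3 and ANKRD37, and with these left out 17 of 27 held the core. Over all tested genes with a sequence, the core went with little difference: the median log2 change was −0.06 for 2712 genes with ACGTG and 0.01 for 9169 genes without it, with 27.9% and 26.9% called lower.

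**Figure D5:**
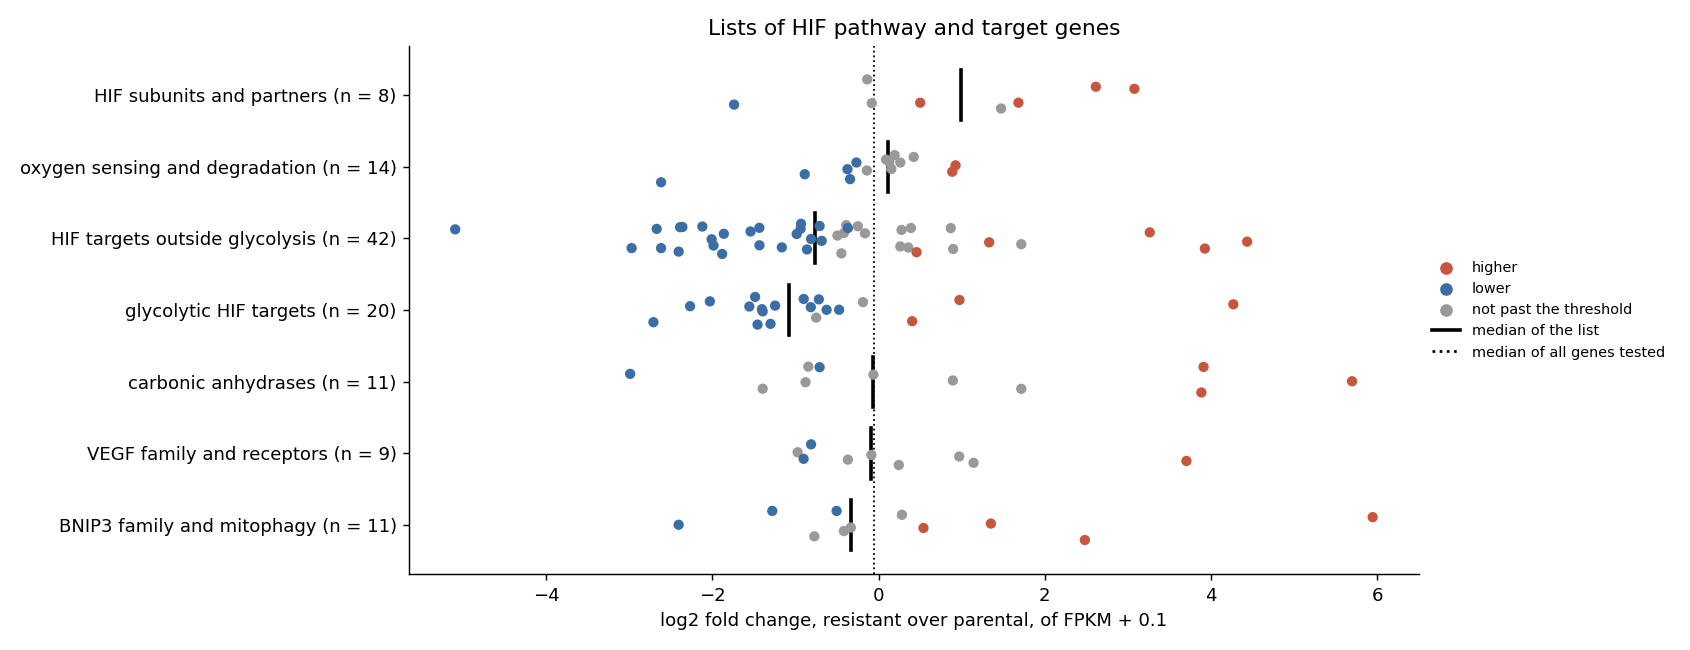
Log2 fold change of FPKM + 0.1 (x axis) of every tested gene in 7 lists of the HIF pathway, in resistant against parental cells (red, called higher; blue, called lower; grey, not past the threshold; black bars, list medians; dotted line, median of all genes tested). Targets outside glycolysis and glycolytic targets lie mostly to the left of 0, with medians of −0.76 and −1.07. Values of genes at 0 in all parental libraries (CA10 and VEGFC) depend on the pseudocount.

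Of the glycolytic targets of HIF, 15 of 20 were called lower and 3 higher (ENO2, and PFKL and TPI1, which are named after their values were seen), with a median log2 change of −1.07. These are 75% lower and 15% higher, against 22.1% higher and 22.3% lower over all genes tested. ENO1 and ALDOA had log2 changes of −1.30 and −1.49, GPI had −1.39 and the glucose carrier SLC2A1 −1.40, and ENO2, the neuronal enolase, rose by 4.27 on the log2 scale.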

How the data were processed

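RNA-Seq of 3 parental and 3 enzalutamide resistant libraries of C4-2B cells was analysed. The authors trimmed single-end 50 bp reads with TrimGalore, aligned them with STAR to GRCh38 (GENCODE annotation) and made the deposited FPKM values with Cufflinks. The table names no unit, and FPKM was inferred from these tools and the fractional values. The submitters' processing notes list Trimmomatic 0.27, FastQC 0.10.1 and a mouse build, whereas the gene identifiers are human. The libraries were made with a stranded total RNA kit, and whether strand was used in the quantification is not given in the sources used here.

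The test was limma 3.58.1 under R 4.3.3 (lmFit, eBayes with a mean-variance trend) on log2(FPKM + 0.1), two-sided, with Benjamini-Hochberg adjustment over 24468 genes whose mean reached 0.1 FPKM and a threshold of 0.05. The code was tested on simulated data. Ratios within libraries were compared with exact permutation tests (scipy 1.17.1). Positions and exon overlaps came from GENCODE 44 (GRCh38), and upstream sequences from RefSeq (GRCh38.p14). Depth was estimated from single-transcript genes 600 to 8000 bases long. Alternatives covered scaling, filter, pseudocount, variance trend, replicate block, each library left out and a 2-fold limit. The genes and lists were chosen with earlier results of these data known. Named are the 10 genes, up to 5 genes per list with the smallest adjusted p at a mean of at least 1 FPKM, BNIP3L, and genes that overlap or copy a member. The LNCaP libraries, protein and uptake assays of the study were not analysed here.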

Additional observations from a re-analysis of the deposited data

How the results depend on the processing

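Of 149 values of the 10 genes under the alternatives, 130 kept the direction and the side of the threshold, 8 lost the call (all ARNT), 8 gained one and 3 changed sign (all HIF1A, at 0.0393 after quantile normalization, 0.0164 after median ratio scaling and from −0.17 to 0.0522 with each library left out). Of 420 values of 28 other named genes, 415 kept both. CA5B changed sign (0.0344 after median ratio scaling, −0.28 to 0.32 with libraries left out), as did FLT4 (−0.0949 to 0.54). The number of the 10 genes called higher was 4 after median ratio scaling, 3 among protein-coding genes, 0 without a filter, 0 without the variance trend, and 0 to 2 with libraries left out. The number called lower was 5 in every alternative except the 2-fold limit, which left 3 lower, 0 higher, 6979 calls over all genes, 1 in oxygen sensing, 11 among glycolytic targets and 1 in the VEGF family. With libraries left out, calls over all genes ranged from 9324 to 10152 and those among HIF subunits and partners from 3 to 5. The CA12 to CA9 log2 ratio differed by −1.07 with a pseudocount of 1 FPKM and by −3.89 with 0.01 FPKM. The median log2 fold change was −0.05, and 0.05 when protein-coding genes alone were rescaled. Replicate numbers did not pair the libraries: deviations of same-numbered libraries correlated at 0.002, 0.018 and −0.001 across 16382 genes, and not every library correlated best with its own number. With the replicate block, 9463 genes were called, EPAS1 passed (adjusted p = 0.0259, limma) and ARNT did not (adjusted p = 0.0855, limma). Why values and calls moved between the alternatives was not tested. Without read counts, values near 0 such as those of CA9 are limited by depth.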

Other observations

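Of the 11 tested carbonic anhydrases, CA9 and CA12 included, 3 were called higher in the resistant cells (27.3%) and 2 lower (18.2%, CA12 and CA13), close to the 22.1% higher and 22.3% lower over all genes tested. Those called higher were CA8, CA10 and CA11, which are the carbonic anhydrase-related proteins without catalytic activity. CA11 rose from 6.46, 4.91 and 6.82 FPKM to 79.3, 98.5 and 98.4 FPKM (log2 fold change 3.91, Benjamini-Hochberg adjusted p in limma = 1.73e-05). CA8 rose from 0.358, 0.209 and 1.40 FPKM to 29.6, 30.5 and 32.5 FPKM (log2 fold change 5.70). CA10, named after its values were seen, stood at 0 in all parental libraries and at 1.97, 1.29 and 1.02 FPKM in the resistant libraries. The cytosolic enzyme gene CA13 fell from 13.7, 17.0 and 15.8 FPKM to 1.97, 1.39 and 2.33 FPKM (log2 fold change −2.99), and CA5B was not past the threshold.

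Besides BNIP3, the mitophagy list of 11 genes held 4 genes called higher (FUNDC1, PINK1, PHB2 and PARK2) and 2 others called lower (SQSTM1 and FKBP8), of which PARK2 and FKBP8 are named after their values were seen. With BNIP3 these are 36.4% higher and 27.3% lower, against 22.1% higher and 22.3% lower over all genes tested. FUNDC1, another hypoxia-linked mitophagy receptor, was listed at 0, 0.169 and 0 FPKM in parental and at 8.39, 7.94 and 9.07 FPKM in resistant libraries (log2 fold change 5.94, Benjamini-Hochberg adjusted p in limma = 1.52e-04). This size depends on the pseudocount, with 3.17 at 1 FPKM and 8.34 at 0.01 FPKM. The kinase gene PINK1 rose from 6.93, 4.92 and 7.79 FPKM to 16.6, 16.6 and 16.5 FPKM, and PHB2 had a log2 fold change of 0.54. SQSTM1, the autophagy adaptor p62, fell with a log2 fold change of −1.28.

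A few HIF targets stood out from the rest of their list and are named after their values were seen. BHLHE40, a transcriptional repressor, had the largest decrease of the list, from 16.3, 17.8 and 15.7 FPKM to 0.554, 0.223 and 0.454 FPKM (log2 fold change −5.09). ADM, ANGPTL4 and TMEM45A, 3 of the 5 targets called higher, rose by 3.26, 3.93 and 4.43 on the log2 scale, with ANGPTL4 at 25.3, 29.4 and 33.0 FPKM in the resistant libraries. The other two were LOXL2 and PLOD2, with log2 fold changes of 1.33 and 0.46.

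Within the resistant group, replicate 1 was the lowest library for 5 of the 10 genes (EPAS1, EGLN3, VEGFA, BNIP3 and ANKRD37) and the highest for none. The parental group was similar, with replicate 1 the lowest for 5 genes and the highest for 1. Replicate 2 was the highest for 6 genes in either group.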
